A study of Mus musculus with 16 samples.

Results

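Germline genes that DNA methylation keeps repressed in somatic cells were described across 16 mouse pluripotent cell lines. The group holds 9 of the 22552 genes in the expression table, chosen by name as textbook genes of this class. They are Dazl, Sohlh2, Ddx4, Mael, Asz1, Sycp1, Sycp3, Tex19.1 and Slc25a31. A minimum mean FPKM of 0.5 left 13185 genes to test, 8 of the 9 among them, and Asz1 lay below it. FPKM, the unit of all levels here, relates the reads of each gene to its length and to the size of the library, so that levels can be compared between genes. In bulk RNA, fewer cells that use a gene and less RNA per cell cannot be told apart.

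All lines descended from adipocyte progenitor cells (APCs) of mice made entirely from iPSCs of a 129-M2rtTA background, and all carried the same doxycycline-inducible reprogramming insertion. AN lines are nuclear transfer embryonic stem cells, made by moving an APC nucleus into an enucleated B6D2F1 oocyte, and AI lines are iPSCs made from such APCs with doxycycline. F and P stand for fully and partially reprogrammed lines by tetraploid complementation, a test of whether a line can form a whole mouse. The fully reprogrammed lines were AN1, AN9, AN15 and AN20 (AN F) with AI3, AI7, AI10 and GS32 (AI F). The partially reprogrammed lines were AN2, AN3, AN5, AN6 and AN7 (AN P) with AI9, GS4 and GS9 (AI P). Values are given in these orders throughout. GS4, GS9 and GS32 were older AI lines, sequenced at passages 17, 6 and 13, while the other AI lines were at passage 7 and the AN lines at passages 5 to 7. Each line is 1 clone with 1 library, and the labels do not say which lines came from separate animals, so p-values measure only the spread between lines. For GS9 and GS32 a second entry of the sample record names GS4, and both were placed by their titles.

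Genes of the germline programme share promoters rich in CpG that become methylated when the embryo forms its somatic lineages, and methylation then keeps them silent outside germ cells. Pluripotent cells hold part of this repression by other means as well, among them the E2F6 and MGA subunits of the polycomb complex PRC1.6, which bind E2F motifs and E-boxes, and the histone methyltransferase SETDB1. Some members, such as Tex19.1, are normally active in pluripotent cells too. The expression table holds no methylation values, so the word repressed describes the class and not a measurement in these lines.

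Promoters are shown first, because the features that place a gene in this class lie there. A RefSeq window of 250 bases before to 50 bases after the start site (GRCm38.p6) was found for 9 of 9 genes, and each matched the mm9 genome once. The windows held a median of 21 CpG dinucleotides, against 7 over all 32851 windows. The ratio of observed to expected CpG was at least 0.6 in 7 of 9 windows, and in 35.8% of all windows. The E-box CACGTG was present in 5 of 9 windows and in 7.15% of all windows. TCCCGC, the core of the E2F6 motif, or its reverse complement GCGGGA, was present in 6 of 9 windows and in 6562 of the 32851 (20.0%). TATAAA, searched on both strands like the others, was found in 1 of 9, Tex19.1, and in 13.6% of all windows.

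Both the E-box and the E2F6-like motif were present in Ddx4, Mael, Sycp1, Sycp3 and Slc25a31, that is in 5 of 9 windows, compared with 1.99% of all windows. Each of these motifs holds a CpG, and the set of all windows was not matched for CpG content. The windows of Dazl, Asz1 and Sohlh2 held none of the 3 motifs. In mm9 coordinates, the Ddx4 window is chr13:113442469-113442768 (minus strand), the Mael window is chr1:168168826-168169125 (minus strand) and the Sycp1 window is chr3:102739974-102740273 (minus strand). The Sycp3 window is chr10:87922082-87922381 (plus strand) and the Slc25a31 window is chr3:40512543-40512842 (plus strand). These 5 windows are printed 5′ to 3′ in the direction of the gene, with the E-box and the E2F6-like motif of either orientation in capitals. The motifs do not overlap.
Ddx4: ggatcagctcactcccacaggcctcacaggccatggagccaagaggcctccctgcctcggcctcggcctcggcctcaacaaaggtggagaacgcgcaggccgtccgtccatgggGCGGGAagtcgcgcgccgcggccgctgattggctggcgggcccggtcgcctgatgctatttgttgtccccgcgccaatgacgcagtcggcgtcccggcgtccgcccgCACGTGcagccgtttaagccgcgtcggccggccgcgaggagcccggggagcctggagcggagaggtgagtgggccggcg
Mael: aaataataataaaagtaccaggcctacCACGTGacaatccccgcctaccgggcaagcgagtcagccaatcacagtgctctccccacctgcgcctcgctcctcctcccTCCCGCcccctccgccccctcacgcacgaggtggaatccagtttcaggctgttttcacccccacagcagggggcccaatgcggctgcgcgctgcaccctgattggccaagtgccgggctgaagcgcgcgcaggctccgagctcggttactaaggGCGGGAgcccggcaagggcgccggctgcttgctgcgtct
Sycp1: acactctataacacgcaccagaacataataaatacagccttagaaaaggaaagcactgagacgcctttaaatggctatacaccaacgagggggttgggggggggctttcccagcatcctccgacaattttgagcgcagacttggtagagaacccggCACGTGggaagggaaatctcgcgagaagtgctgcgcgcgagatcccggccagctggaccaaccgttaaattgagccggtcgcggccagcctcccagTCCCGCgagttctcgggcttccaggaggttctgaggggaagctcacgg
Sycp3: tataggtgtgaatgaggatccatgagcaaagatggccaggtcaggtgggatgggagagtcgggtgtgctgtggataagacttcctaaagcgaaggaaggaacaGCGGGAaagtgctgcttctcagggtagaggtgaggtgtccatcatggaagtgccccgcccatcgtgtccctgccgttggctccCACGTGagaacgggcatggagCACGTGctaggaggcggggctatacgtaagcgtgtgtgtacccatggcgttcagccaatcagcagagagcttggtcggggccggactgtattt
Slc25a31: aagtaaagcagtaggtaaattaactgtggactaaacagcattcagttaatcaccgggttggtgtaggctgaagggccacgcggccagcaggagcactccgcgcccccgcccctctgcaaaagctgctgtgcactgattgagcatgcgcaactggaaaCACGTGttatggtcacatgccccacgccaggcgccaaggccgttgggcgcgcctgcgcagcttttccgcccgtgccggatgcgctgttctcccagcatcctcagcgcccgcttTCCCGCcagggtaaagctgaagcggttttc
In Ddx4 the motifs begin at bases -136 and -29 from the start site, and in Slc25a31 at -93 and 21. The Sycp3 window holds 3 motifs, at -147, -64 and -43. A match is a description of the sequence only, and binding was not measured in these lines.

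**Figure D1:**
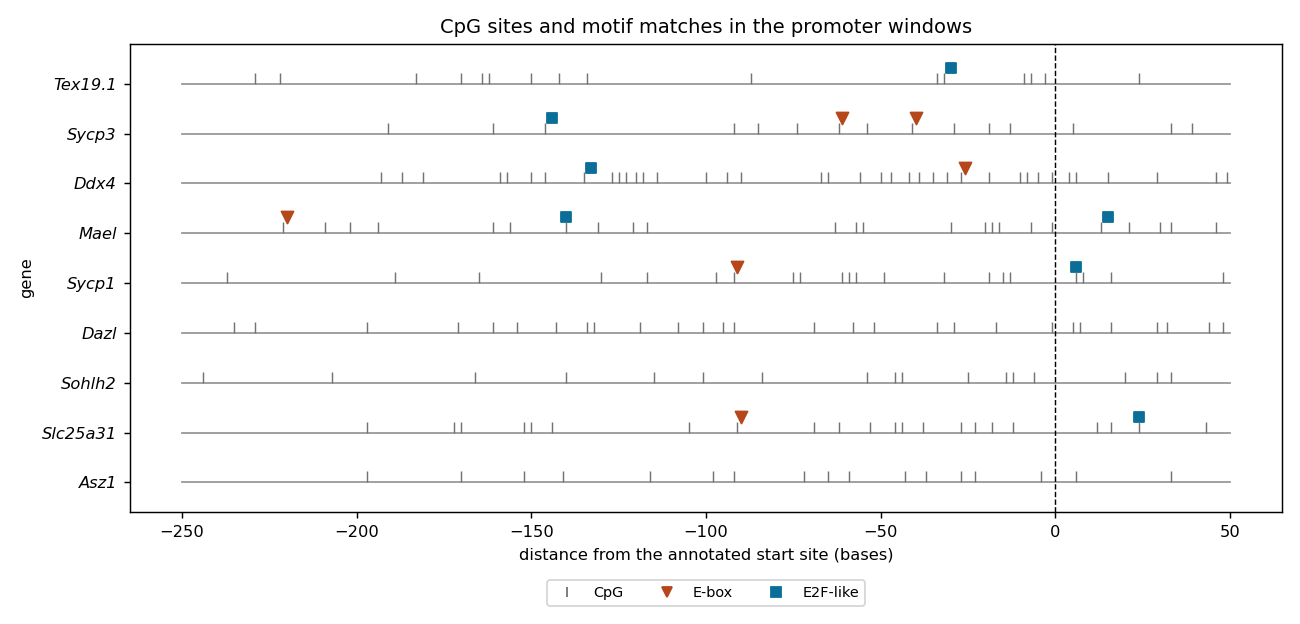
Promoter windows of the 9 germline genes, drawn as distance from the start site in bases, with each CpG dinucleotide and each motif marked by its position. Ddx4, Mael, Sycp1, Sycp3 and Slc25a31 carry both the E-box and the E2F6-like motif, and Dazl, Asz1 and Sohlh2 carry neither.

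The 9 genes spanned a wide range of levels. By mean FPKM over the 16 lines, Tex19.1 was highest at 37.7, followed by Sycp3 at 12.6, Ddx4 at 9.01, Mael at 6.48 and Sycp1 at 3.04. Dazl at 1.40 and Sohlh2 at 1.39 were level, and Dazl was the higher of the pair in 5 of 16 lines. Slc25a31 followed at 0.686 and Asz1 at 0.0425. Every other pair of neighbours in this order stood in the same order in 15 or 16 of the 16 lines. The levels varied more between lines than those of most genes at similar levels. The SD over 16 lines of log2(FPKM + 1) lay between 0.310 for Slc25a31 and 0.502 for Tex19.1, whereas the median SD of the 200 genes nearest in mean level was between 0.184 and 0.249. Each of the 8 tested genes varied more than 152 (Ddx4) to 194 (Tex19.1) of its 200 neighbours.

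**Figure D2:**
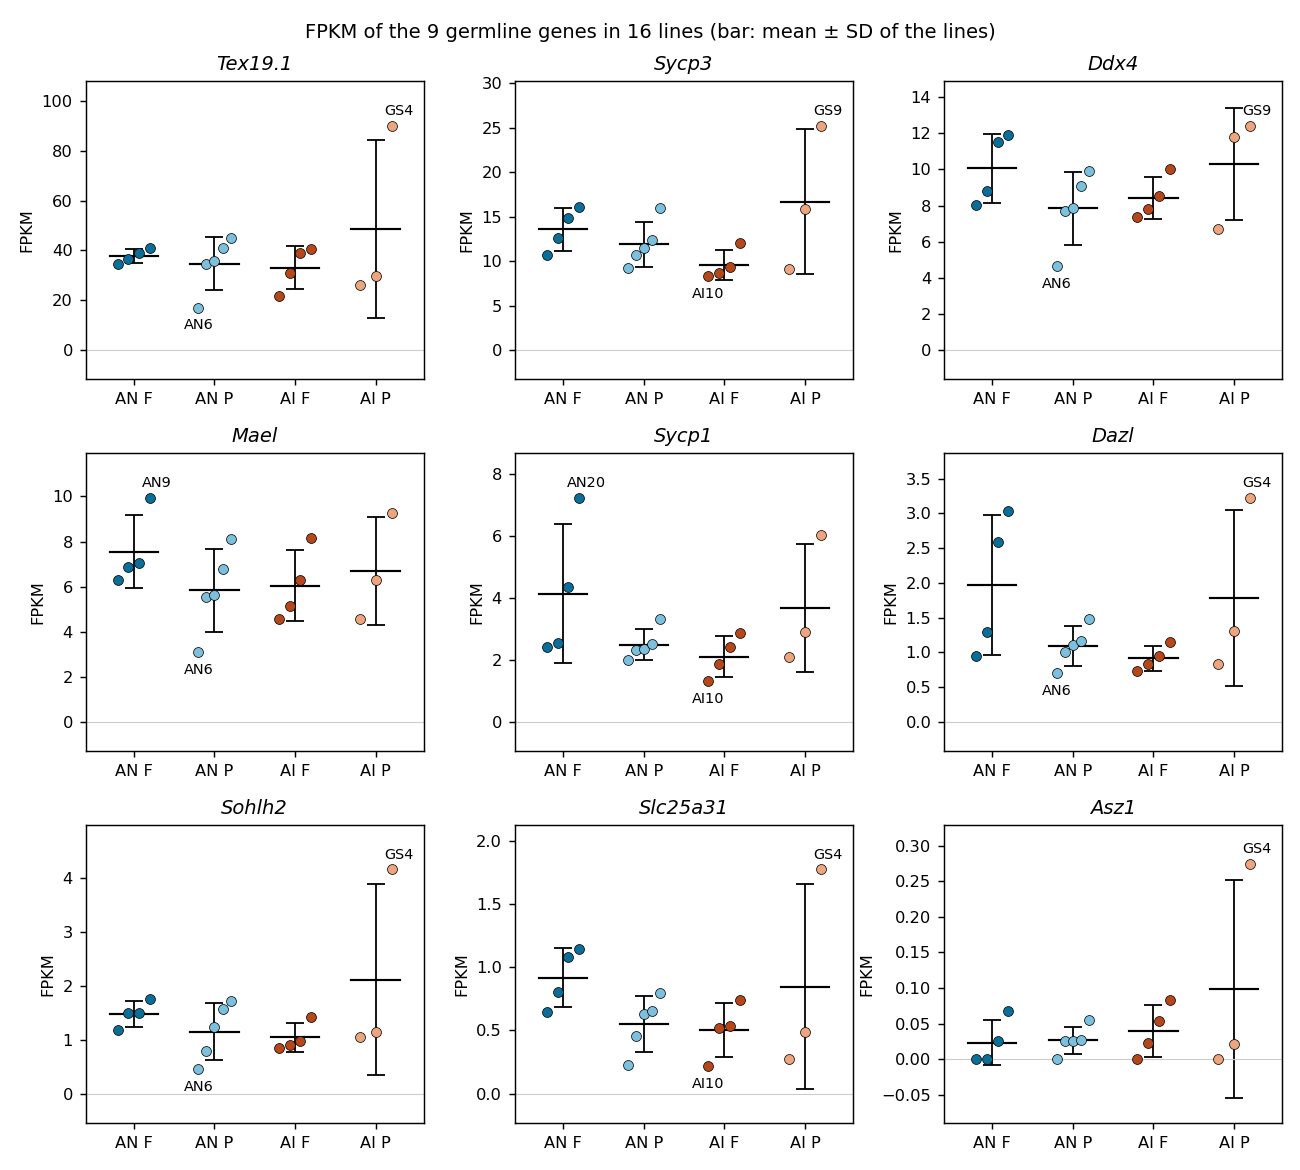
FPKM of each of the 9 germline genes in the 16 lines, 1 point per line, with the bar at the group mean and the error bar showing the SD (4, 5, 4 and 3 lines from left to right). GS4 has the highest point in 5 of the 9 panels and AN6 the lowest in 5 of the 8 panels of tested genes. Of all tested genes, 14.7% were highest in GS4 and 13.9% were lowest in AN6.

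Dazl and Sohlh2 are regulators of early germ cells. Dazl encodes an RNA-binding protein that controls translation and lies on the minus strand of chromosome 17 (50418719 to 50432924, mm9, protein coding). Its FPKM was 0.941, 2.59, 1.29 and 3.04 in AN1, AN9, AN15 and AN20, and 1.17, 1.10, 1.49, 0.702 and 1.00 in AN P. Levels in AI3, AI7, AI10 and GS32 were 0.950, 1.15, 0.736 and 0.830, and in AI9, GS4 and GS9 they were 0.832, 3.23 and 1.30. AN9, AN20 and GS4 stood above all other lines, and F and P overlapped in AN and in AI. AN F averaged 1.97 ± 1.01 (SD, n = 4) and AN P 1.09 ± 0.284 (SD, n = 5), which gave a limma difference of 0.45 on the log2(FPKM + 1) scale (SE 0.22, adjusted p = 0.636). Between AI F and AI P the difference was -0.45 (SE 0.27, limma adjusted p = 0.522). It was -0.10 without GS4, and the AN difference was 0.28 without AN20.

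Sohlh2, on the plus strand of chromosome 3 (54985950 to 55013879), encodes a basic helix-loop-helix transcription factor of spermatogonia and oocytes. AN F lines had FPKM values of 1.18, 1.49, 1.50 and 1.76, and AN P lines, in the order above, 0.787, 1.24, 1.58, 0.457 and 1.71. The AI F lines had 0.983, 1.43, 0.859 and 0.911, and AI9, GS4 and GS9 had 1.05, 4.16 and 1.15. GS4 was the single high line and AN6 the single low one, a ratio of 9.11 between them and the widest of the 8 tested genes. The difference was 0.24 (SE 0.18) between AN F and AN P and -0.48 (SE 0.32) in the AI lines on the log2 scale, with limma adjusted p of 0.650 and 0.536. Without GS4 the AI difference shrank to -0.04.

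Ddx4, Mael and Asz1 act in the piRNA pathway, in which small RNAs guide the silencing of transposons in germ cells. Ddx4 encodes the RNA helicase VASA and lies on chromosome 13 (113388541 to 113442518, minus strand). It had FPKM values of 8.82, 11.9, 8.04 and 11.5 in AN F and 7.70, 7.88, 9.90, 4.64 and 9.10 in AN P. In AI F the levels were 10.0, 8.51, 7.37 and 7.80, and in AI9, GS4 and GS9 they were 6.73, 11.8 and 12.4. GS9, AN9, GS4 and AN20 formed the top of the range and AN6 the bottom. The log2 difference was 0.34 (SE 0.20) in AN and -0.23 (SE 0.22) in AI, with limma adjusted p of 0.636 and 0.620.

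Mael, which encodes a component of the perinuclear granules of germ cells, lies on chromosome 1 (168131516 to 168168875, minus strand). Its FPKM ran from 6.31 to 9.95 in AN F, from 3.10 (AN6) to 8.11 in AN P, from 4.58 to 8.16 in AI F and was 4.55, 9.27 and 6.27 in AI9, GS4 and GS9. The groups overlapped throughout. The log2 difference was 0.35 (SE 0.22) between AN F and AN P and -0.11 (SE 0.25) in the AI lines, and the latter turned to 0.12 without GS4 and to 0.04 when small RNA genes were left out of the library totals. Asz1 encodes a scaffold protein of the same granules (chromosome 6, 18000964 to 18059061, minus strand) and was listed at 0 in 5 of 16 lines. Its level was 0.275 in GS4, which equals 13 steps of the smallest difference in that line, and at most 0.0832, or 3 steps, in each of the other 15. Asz1 was thus close to the limit of detection in all lines but GS4.

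Sycp1 and Sycp3 build the synaptonemal complex, the protein zipper between homologous chromosomes in meiosis. Sycp1 encodes its transverse filament (chromosome 3, 102622422 to 102740023, minus strand). The FPKM of Sycp1 was 2.42, 4.36, 2.55 and 7.25 in AN F, and 2.52, 2.31, 2.34, 2.01 and 3.33 in AN P. AI F lines had 1.87, 2.41, 1.31 and 2.87, and AI P lines 2.11, 6.04 and 2.91. AN20, GS4 and AN9 stood apart at the top, as they did for Dazl. The log2 difference was 0.47 (SE 0.25) in AN and -0.53 (SE 0.30) in AI, with limma adjusted p of 0.636 and 0.521. Without AN20 the AN difference was 0.21, and without GS4 the AI difference was -0.19.

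Sycp3, on the plus strand of chromosome 10 (87922314 to 87935981), encodes the axial element. It overlaps Chpt1 on the other strand, and since the use of strand in the counting is not given in the sources used here, reads of the 2 genes cannot be told apart where they overlap. AN F lines had 10.7, 16.1, 12.6 and 14.9 FPKM, and AN P lines 11.5, 9.20, 15.9, 12.3 and 10.7. The AI F values were 8.64, 9.32, 8.33 and 12.1, and those of AI9, GS4 and GS9 were 9.07, 15.8 and 25.2. GS9 was far above the other 15 lines, whereas AI9 was no higher than GS32, an AI F line. AI F averaged 9.59 ± 1.71 (SD, n = 4) and AI P 16.7 ± 8.10 (SD, n = 3), with a log2 difference of -0.65 (SE 0.31, limma adjusted p = 0.521), which was -0.31 without GS9. The AN difference was 0.18 (SE 0.16, limma adjusted p = 0.686).

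Tex19.1 is a repressor of retrotransposons that acts in germ cells, placenta and pluripotent cells (chromosome 11, 121007457 to 121009633, plus strand). Its FPKM was 41.1, 34.8, 36.5 and 39.0 in AN F, and 41.0, 35.9, 34.6, 17.0 and 45.0 in AN P. AI F lines had 31.2, 38.9, 21.9 and 40.6, and AI9, GS4 and GS9 had 29.8, 90.0 and 26.0. GS4 alone lay far above the rest and AN6 alone below all others. The log2 difference was 0.19 (SE 0.24) in AN and -0.35 (SE 0.44) in AI, with limma adjusted p of 0.772 and 0.703, and each turned sign when 1 line was left out, to -0.04 without AN6 and to 0.21 without GS4. Its close paralog Tex19.2 had a mean FPKM of 0.303, and how reads shared by the copies were counted is not given in the sources used here.

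Slc25a31 encodes ANT4, the testis form of the mitochondrial ADP/ATP carrier (chromosome 3, 40512777 to 40529515, plus strand). FPKM values were 0.644, 1.14, 0.802 and 1.08 in AN F, and 0.796, 0.452, 0.655, 0.226 and 0.629 in AN P. In AI F they were 0.737, 0.536, 0.219 and 0.522, and in AI9, GS4 and GS9 0.277, 1.77 and 0.491. AN2 and AN5 were the AN P lines above the lowest AN F line, and AN6 and AI10 were at the bottom. The log2 difference of 0.31 between AN F and AN P (SE 0.13) was the only one among the members with an unadjusted p under 0.05 in that comparison (p = 0.0348, adjusted p = 0.636 by limma), while the exact permutation test, two-sided, gave 0.0635. In AI the difference was -0.22 (SE 0.27), and it turned to 0.11 without GS4. The somatic carriers Slc25a4 and Slc25a5 had mean FPKM values of 465 and 494.4. Slc25a4 averaged 404.2 ± 55.6 FPKM in AN F (SD, n = 4) but 510.1 ± 84.1 in AN P (SD, n = 5), a log2 difference of -0.33 (SE 0.14, limma adjusted p = 0.636).

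**Figure D3:**
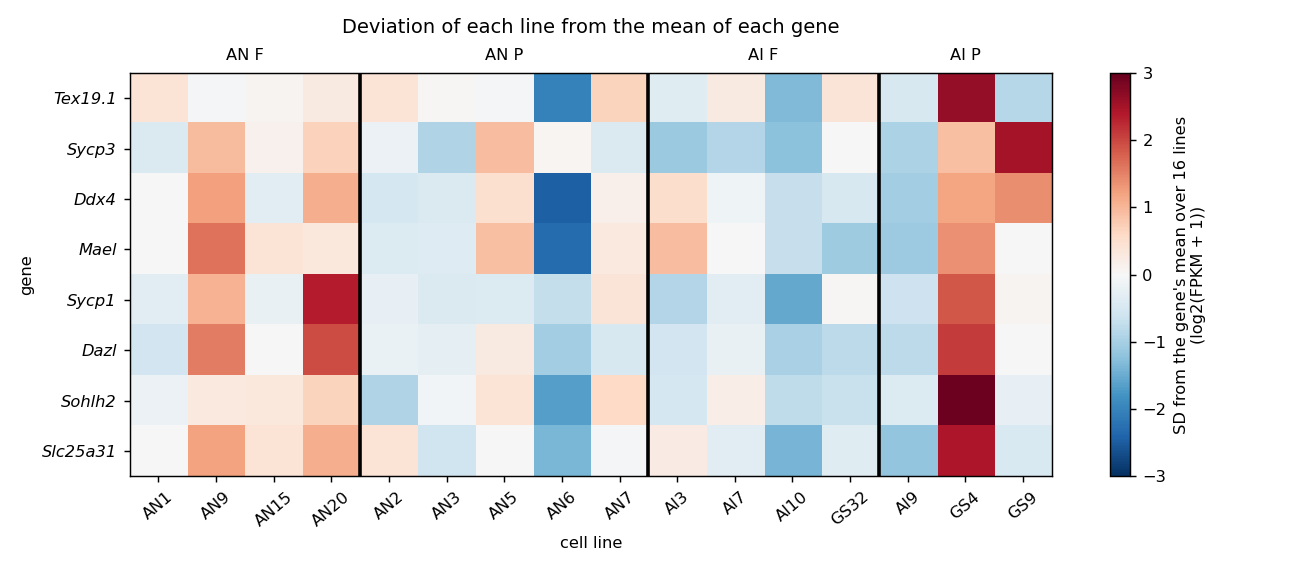
Each tested germline gene in each of the 16 lines, as log2(FPKM + 1) scaled over the lines to a mean of 0 and an SD of 1. GS4 is high in most rows, and AN6 and AI10 are low in most rows.

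The comparison of fully with partially reprogrammed lines asks whether levels of these genes go with the developmental capacity of a line. In AN, 8 of 8 tested genes were higher in AN F on average, with a median log2 difference of 0.32, while 46.2% of all 13185 genes lay above 0 and their median was -0.01. The 8 genes varied together over the 16 lines (median Pearson's r between pairs 0.684). Counts of genes in 1 direction, in AN or in AI, are therefore not counts of separate observations. None passed an adjusted p under 0.05 by limma, as for 0% of all genes, and 1 of 8 passed an unadjusted p under 0.05, as did 6.01% of all genes (3.02% higher and 2.99% lower). That 1 gene, Slc25a31, was lost without AN3, AN6, AN9 or AN20, when 3.89%, 3.69%, 1.93% and 1.51% of all genes passed. The number was 3 of 8 without AN1, against 15.8% of all genes, and without AN15, against 11.9%. Without AN6 the median was 0.19 and 7 of 8 genes lay above 0. In AI the direction was opposite, with 8 of 8 genes lower in AI F, a median of -0.40 and a median of -0.04 over all genes, of which 43.7% lay above 0. Again 0 of 8 passed an adjusted p under 0.05 (0% of all genes), and 0 of 8 passed an unadjusted p under 0.05, against 7.77% of all genes (3.47% higher and 4.30% lower), and without AI9 4 of 8 did so, against 24.9% of all genes. The median was -0.64 without AI9 and -0.20 with derivation as a term (older lines were GS4 and GS9 in AI P and GS32 in AI F). Leaving out GS4 brought the AI median to -0.07, with Mael, Tex19.1 and Slc25a31, 3 of 8 genes, above 0. The groups F and P overlapped for each of the 9 genes in AN and in AI, while 0.584% of all genes lay wholly above and 0.713% wholly below in AN, and 1.70% and 3.19% in AI. Exact permutation tests gave 0 of 9 genes with p under 0.05 in either comparison, and the smallest p that the AI design allows is 0.0571.

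The difference between the effects was tested as an interaction term over all 16 lines. It was below 0 for 8 of 8 genes, which follows from their opposite signs in AN and AI and is no further result. Its median was -0.64 on the log2 scale, against -0.04 over all genes, of which 45.4% lay above 0. By limma, 0 of 8 passed an adjusted p under 0.05 (0% of all genes). Sycp1 (-0.997, SE 0.404), Dazl (-0.90, SE 0.36) and Sycp3 (-0.82, SE 0.34) passed an unadjusted p under 0.05, that is 3 of 8, and 16.6% of all genes did so (8.30% higher and 8.34% lower). Their adjusted p was 0.290 each. Without AI9 the interaction for Sycp3 was -1.18 with a limma adjusted p of 0.0391, in a fit in which 651 of 13185 genes (4.94%) passed the adjusted threshold. There 6 of 8 genes had an unadjusted p under 0.05, against 29.7% of all genes. None of the 8 had one without GS4 (11.5% of all genes) or without AN20 (9.40%), and 1 of 8 had one without AN9 (9.03%) or without AI10 (10.5%). The share of all genes was also lower in each of these fits than in the fit of all lines. Leaving out GS4 moved the median of the interaction to -0.37.

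**Figure D4:**
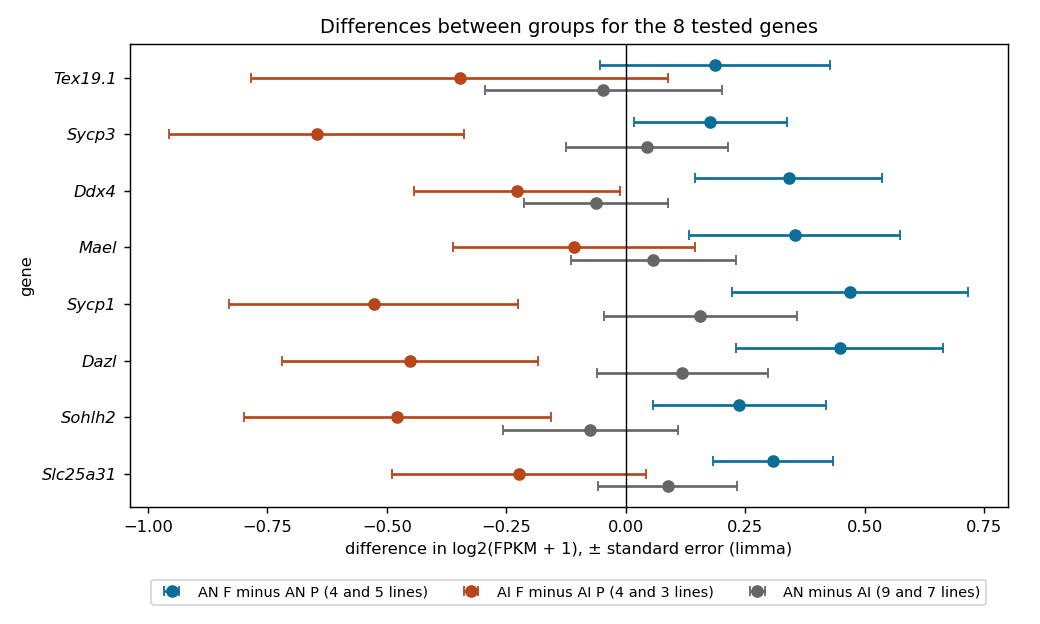
Log2 differences of the 8 tested germline genes with their SE, AN F minus AN P and AI F minus AI P, from limma. All 8 points lie above 0 in AN and below 0 in AI, and no gene passes an adjusted p under 0.05.

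Nuclear transfer and factor-induced lines were then compared over reprogramming states, with 9 AN and 7 AI lines. The log2 difference AN minus AI was above 0 for 5 of 8 genes (51.6% of all genes) and lay between -0.07 for Sohlh2 and 0.16 for Sycp1, with an adjusted p of 0.999 for each by limma. None of the 8 genes passed an unadjusted p under 0.05, against 3.52% of all genes (2.16% higher and 1.36% lower), and 0 of 8 passed an adjusted p under 0.05, as for 0% of all genes. The 95% intervals of the difference ran from -0.57 to 0.48 for Tex19.1, from -0.27 to 0.59 for Sycp1 and from -0.38 to 0.26 for Ddx4. Differences within these intervals are compatible with the values of these lines. Non-overlap of AN with AI was seen for 0 of 9 genes, with 0.0152% of all genes wholly above and 0.00758% wholly below. The sign of several of these differences turned under other settings, Sohlh2 to 0.14 and Tex19.1 to 0.23 without GS4 among them. With derivation as a term, 8 of 8 genes lay above 0 (median 0.22), against 53.3% of all genes. Without GS4, 7 of 8 did (median 0.20, 50.9% of all genes), and without AI9 1 of 8 (median -0.09, 51.0%). An unadjusted p under 0.05 was reached by 1 of 8 with derivation (2.79% of all genes), 1 of 8 without GS4 (4.09%) and 0 of 8 without AI9 (7.29%).

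Levels also differed between individual lines. GS4 had the highest level of Dazl, Sohlh2, Tex19.1, Slc25a31 and Asz1 and was among the 3 highest lines for 7 of the 8 tested genes. GS9, of the same group, was highest for Ddx4 and Sycp3, while AI9, the third AI P line, was among the 3 lowest for 4 of 8. AN9 was among the 3 highest for 6 of 8 genes and AN20 for 4 of 8, both AN F lines. At the other end, AN6 was lowest for 5 of 8 genes and among the 3 lowest for 7, and AI10, a fully reprogrammed line, was among the 3 lowest for 7. Of all 13185 tested genes, 14.7% were highest in GS4 and 13.9% were lowest in AN6, against 4 and 5 of the 8 germline genes. Shares of all genes among the 3 highest or 3 lowest were not counted. The mean of the 8 scaled levels was 1.93 in GS4, 1.05 in AN20 and 0.985 in AN9, and -0.822 in AI9, -1.08 in AI10 and -1.44 in AN6.

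The members varied together. Over the 16 lines, Pearson's r between pairs of the 8 genes was above 0 for 28 of 28 pairs, with a median of 0.684, from 0.125 for Tex19.1 with Sycp3 to 0.899 for Sycp1 with Dazl. Deviations from the group means gave a median r of 0.646 and 27 of 28 pairs above 0. Leaving out GS4 and AN6 brought the median over 14 lines to 0.553, with 26 of 28 pairs above 0. All points share a library and its scaling, so the r values are a description. The 5 genes whose level followed the mean of the 8 most closely were G3bp2, an RNA-binding protein of stress granules (r = 0.951), Xrcc5, the Ku80 subunit of DNA end joining (0.943), Syce1, a central element protein of the synaptonemal complex (0.936), Lig4, the DNA ligase of end joining (0.934), and Napepld, a lipid phosphodiesterase (0.931), each over 16 lines.

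**Figure D5:**
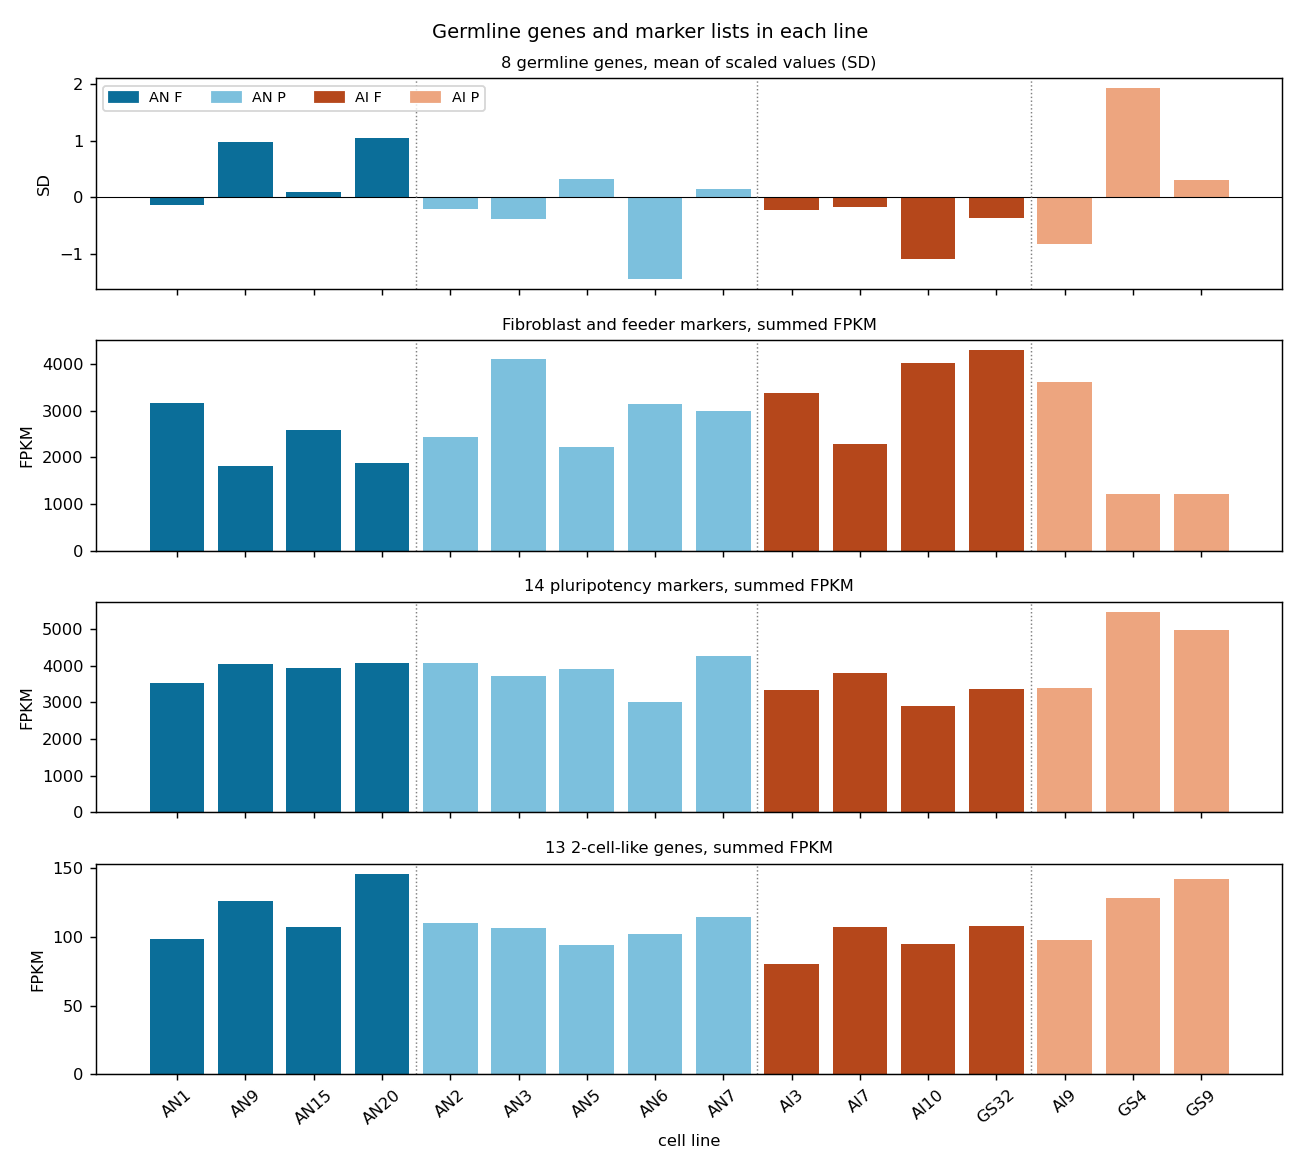
Summed FPKM of marker lists in each of the 16 lines, 1 bar per line, below the mean scaled level of the 8 tested germline genes in the same lines. GS4, AN20 and AN9 lie low in the fibroblast and feeder markers, and AN6 and AI10 lie low in the pluripotency markers. AN6 ranks 7 of 16 in the fibroblast and feeder markers, and AN20 and AN9 rank 5 and 6 in the pluripotency markers.

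Marker lists of other cell types also differed between lines, though not in the same lines throughout. The 20 fibroblast and feeder markers, all of them in the table, summed to 1217 FPKM in GS4, 1214 in GS9, 1817 in AN9 and 1876 in AN20, and to between 2229 and 4288 in the other 12 lines. The highest sums were in GS32, AN3, AI10 and AI9, which ranked 12, 13, 15 and 14 for the mean of the scaled germline levels. AN6, lowest for that mean, ranked 7 for these markers (3133). Of the 20 markers, 2 were higher in AN F than in AN P on average and 20 of 20 lay above 0 for AI F minus AI P, with median log2 differences of -0.27 and 1.04, the reverse of the germline genes. Tagln led this list in level, and S100a4 (1.17), Vim (1.06) and Col6a2 (1.03) had the smallest unadjusted p in AI, all under 0.05. The sum of 14 pluripotency markers was lowest in AI10 (2898) and AN6 (3020) and highest in GS4 (5451) and GS9 (4959), with 11 of 14 above 0 in AN and 3 of 14 in AI. AN20 and AN9 ranked 5 and 6 of the 16 lines for this sum. Dppa5a was the most abundant of the pluripotency markers, and Klf2 (-0.81) and Tdgf1 (-0.71) had an unadjusted p under 0.05 in AI. The 13 markers of late germ cells summed to between 1.39 and 5.04 FPKM, and Zp3, a zona pellucida gene at a mean of 2.26, was the only one over the minimum, with -0.78 in AI (unadjusted p = 0.0292 by limma). The sperm gene Prm2 was at 0 in 14 of 16 lines, with at most 0.0986 FPKM in AN15. Tnp1 and Oosp1 were also at 0 in 14 lines, Acrv1 in 12, and Prm1 and Zp1 in 11. The 13 genes of 2-cell-like cells found in the table, led by the translation factor Eif1a, summed highest in AN20 (145.7), GS9 (142.3), GS4 (128.7) and AN9 (126.1). Eif1a made up most of these sums, and the other 12 genes summed to 40.5 in GS4, 15.3 in AN20, 6.14 in AN9 and 5.49 in GS9, which then ranked 1, 3, 7 and 9 among the 16 lines. Tcstv1, Tcstv3 and Gm4340 were at 0 in every line. The 6 tested 2-cell-like genes were Eif1a, Zscan4a, Zscan4c, Zscan4d, Zscan4e and Zscan4f. They were above 0 in 6 of 6 cases in AN and in 0 of 6 in AI, with median log2 differences of 0.35 and -0.97. How reads shared by the Zscan4 copies were counted is not given in the sources used here, so these copies may not be separate observations. The 10 adipocyte progenitor markers in the table summed to between 197 and 455 FPKM, with 1 of 7 tested genes above 0 in AN and 6 of 7 in AI. Itgb1 led them, Pdgfra had 0.43 in AI and Fabp4 had -0.46 between AN and AI, both with an unadjusted p under 0.05. Relative depth, estimated from the steps between low values, was 1.26 in GS4, 0.962 in GS9 and 1.04 in AN6, with AN1 at 1. The part of fibroblast RNA, pluripotency level, 2-cell-like cells and depth in the germline values was not tested.

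Other genes of the germline programme, from lists that leave out the 9 members, are given by list, and no list gene passed an adjusted p under 0.05. Of 14 tested meiotic chromosome genes, 10 lay above 0 in AN (median 0.08) and 0 in AI (median -0.34). Syce2, a central element gene, was the most abundant at a mean FPKM of 71.3. Mnd1 (-0.50), Hormad2 (-0.40) and Mei4 (-0.24), which act in strand exchange, axis surveillance and break formation, had an unadjusted p under 0.05 in AI by limma, and Mnd1 also between AN and AI (-0.28). Of 12 tested piRNA genes, 6 lay above 0 in AN (median 0.01) and 4 in AI (median -0.27), and Rnf17 (-0.84) and Exd1 (-0.27) had an unadjusted p under 0.05 in AI. Rnf17, a Tudor protein of germ cell granules, ran from 2.18 FPKM in AN6 to 10.46 in AN20. Its interaction was -1.44 (SE 0.42) by limma. It was the 1 of 12 tested piRNA genes with an unadjusted p under 0.05 in the interaction, against 16.6% of all genes. Interaction values of other list genes are not given here. Tdrd12 led this list at a mean of 41.3.

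Among 11 tested testis genes of other kinds, 9 lay above 0 in AN (median 0.10) and 0 in AI (median -0.50). The sperm lactate dehydrogenase gene Ldhc (-0.58) and the ubiquitin protease gene Usp26 (-0.61) had an unadjusted p under 0.05 in AI, and Zcwpw1, a reader of histone marks at meiotic break sites, was the most abundant at 11.0. The 8 tested germ cell regulators had 4 genes above 0 in AN and 3 in AI. Boll, a relative of Dazl, had a difference of -0.43 in AI with an unadjusted p under 0.05, and Dmrt1, the most abundant at 10.5, had -0.06.

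Genes that set or hold the repression followed. Of 13 tested DNA methylation genes, 8 lay above 0 in AN and 7 in AI. Dnmt3b, a de novo methyltransferase, was the most abundant at a mean FPKM of 177.7. Tet3, a methylcytosine oxidase, had a log2 difference of 0.58 for AI F minus AI P, and Dnmt1, the maintenance methyltransferase, had -0.20 between AN and AI, both with an unadjusted p under 0.05 by limma. Counted after the values had been seen, 5 of the 13 were lowest in AN6 and highest in GS4, as were 3 of the 8 germline genes and 4.54% of all tested genes. The same held for 5 of 11 other testis genes, 4 of 14 pluripotency markers, 3 of 14 meiotic chromosome genes and 2 of 12 piRNA genes. It held for 3 of 20 E2F6, PRC1.6 and H3K9 genes, 1 of 8 germ cell regulators, 1 of 7 adipocyte progenitor markers and 0 of 20 fibroblast and feeder markers. The 20 genes of the E2F6, PRC1.6 and H3K9 methylation machinery had 14 members above 0 in AN and 6 in AI, led in level by Trim28 (429.3), and Suv39h2, an H3K9 methyltransferase, had a difference of 0.22 in AN with an unadjusted p under 0.05.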

How the data were processed

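RNA from 16 lines was sequenced as 50-nt single-end reads. Per the study's methods and the submitters' processing notes, the authors mapped the reads to mm9 with TopHat2 2.1.0 and computed the deposited FPKM values with Cufflinks 2.2.1. HTSeq is listed without a role. The table holds 1 FPKM column per line and no counts, and 0 columns were left unused. Read totals are unknown, so relative depth (0.961 to 1.26, with AN1 at 1) was estimated from the steps between low values. Groups F and P follow the study's line names, matched by sample title. The members and lists were chosen with earlier results of these data known.

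Values were used as log2(FPKM + 1). Genes averaging 0.5 FPKM or more were fitted in limma 3.58.1 (R 4.3.3), the variance trend being modelled (AN F against AN P in AN lines, AI F against AI P in AI lines, AN against AI and the interaction in all lines), with Benjamini-Hochberg adjustment over all 13185 genes. Fold changes on this scale understate those of low genes. Single genes were also compared by exact two-sided permutation tests in scipy 1.17.1 (Python 3.11.15). The limma fit was tested on simulated data. The authors' Cuffdiff was not run because it needs reads. Named genes were all members, the most abundant gene of each list and up to 3 per list and comparison with an unadjusted p under 0.05, the 5 genes most like the mean of the members, and paralogs of Slc25a31 and Tex19.1. Markers at 0 are also named.  Promoter windows came from RefSeq (GRCm38.p6) and gene positions from an mm9 annotation. Alternatives were other pseudocounts, filters, scalings, variance priors, thresholds, terms for passage and derivation, and leaving out lines.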

Additional observations from a re-analysis of the deposited data

How the results depend on the processing

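Apart from Sycp3 in the interaction without AI9 (-1.18, limma adjusted p = 0.0391), no germline gene passed an adjusted p under 0.05 under any alternative, so the number called in the interaction ran from 0 to 1 when lines were left out in turn. At an unadjusted p under 0.05, the main fits gave 1 of 8 in AN, where 6.01% of all genes passed. They gave 3 of 8 in the interaction (16.6%), 0 of 8 in AI (7.77%) and 0 of 8 between AN and AI (3.52%). With lines left out in turn, the AN number ran from 0 (1.51% without AN20) to 3 (15.8% without AN1). In AI it ran from 0 to 4 (24.9% without AI9), and in the interaction from 0 (11.5% without GS4) to 6 (29.7% without AI9). Adjusted p ran from 0.291 to 1 in AN, from 0.123 to 1 in AI, from 0.777 to 1 between AN and AI and from 0.0391 to 0.987 in the interaction. The direction stayed in 147 of 148 values in AN, 144 of 148 in AI and 199 of 220 between AN and AI. In the interaction it turned in 2 of 212. Other filters and variance settings, and for AN and AI a fit of all lines together, leave each log2 difference unchanged. Values from these settings could not turn sign, so the counts overstate how stable the direction was. Leaving small RNA genes out of the library totals moved the median of all genes in AI from -0.04 to 0.10 and turned Mael to 0.043.

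With lines left out in turn, the log2 difference of Tex19.1 ran from -0.042 to 0.30 in AN, and in AI that of Mael ran from -0.32 to 0.12, Tex19.1 from -0.67 to 0.21 and Slc25a31 from -0.45 to 0.11. For Tex19.1 the interaction ran from -0.86 to 0.018, and it was 0.25 without both GS4 and AN6, an alternative chosen after seeing the data. Between AN and AI the ranges were -0.0092 to 0.29 for Dazl, -0.19 to 0.014 for Ddx4, -0.049 to 0.17 for Mael, -0.13 to 0.21 for Sycp3, -0.19 to 0.14 for Sohlh2, -0.21 to 0.23 for Tex19.1 and -0.024 to 0.26 for Slc25a31. That comparison also turned sign with passage as a term (Sohlh2 0.14, Tex19.1 0.32), with derivation as a term (Ddx4 0.071, Sohlh2 0.049, Tex19.1 0.21), without GS9 and GS32 (Mael -0.0029) and without GS4 and AN6 (Ddx4 0.069, Sohlh2 0.21, Tex19.1 0.34). Beyond the left-out lines, the cause was not tested. No paired analysis was possible because the labels give no shared replicate numbers. With 3 to 5 lines per group, 0 of 13185 genes passed an adjusted p under 0.05 in each main fit. Read totals are also unknown, so small differences could be missed, in genes below 1 FPKM and in genes above it.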
